A study of Homo sapiens with 6 samples.

Results

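The human cytochrome P450 (CYP) genes were followed in RNA-seq libraries labelled Huh7, a hepatocellular carcinoma line, after 24 h at low or ordinary oxygen. The members were the protein-coding genes whose symbol is CYP followed by a digit, without CYP51A1. This rule gave 55 of the 58478 genes in the deposited table, among its 19867 protein-coding genes, and it used no measured value. The hypoxia group was 3 libraries of wild-type cells kept at 1% O2 for 24 h, and the normoxia group was 3 libraries of the same labelled line at 21% O2. All 6 libraries came from 1 line and shared the growth medium, with serum and antibiotics, and a ribosomal-RNA-depleted, strand-specific, paired-end protocol. The deposited columns gave each library's condition but no replicate number that the labels use, so libraries are named by column, hypoxia C4, C5 and C6 and normoxia C1, C2 and C3. Each library is labelled a biological replicate, but nothing describes separate cultures, so the p-values speak for the spread among these libraries, which may be technical.

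P450 enzymes are heme-containing monooxygenases. They use molecular oxygen, and electrons delivered by partner proteins, to insert an oxygen atom into a substrate. Members in the endoplasmic reticulum take electrons from NADPH-cytochrome P450 reductase (POR), sometimes with cytochrome b5, and the mitochondrial members take them from ferredoxin and ferredoxin reductase. In liver, families 1, 2 and 3 are known for the oxidation of drugs and other foreign compounds, while other members make or break down steroids, bile acids, vitamin D, retinoic acid and fatty acids.

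Levels are given as CPM, the expected counts of a gene scaled to the effective library size, and as mean ± SD over 3 libraries a group. CPM depends on transcript length, so levels of different genes are compared only in FPKM, recomputed from the expected counts and transcript lengths and so per length. A gene rose or fell where the adjusted p of edgeR's quasi-likelihood test, corrected over the 17396 genes tested, was under 0.05. Each log2 change is hypoxia minus normoxia, with its standard error (SE). Gene positions are those of GENCODE release 29 on GRCh38.

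Library totals were between 37621426 and 40794783 expected counts. All 7 listed genes known to respond to low oxygen rose, with a median log2 change of 3.02. The name of the line comes from the labels, and its identity was not tested. The libraries held little mRNA of most hepatocyte markers. Of 24 listed markers, 21 were under 1 CPM in both groups and 9, including AFP, APOA1 and TTR, had 0 counts in all libraries. Their summed level was 1657 to 1908 CPM in hypoxia and 1983 to 2273 CPM in normoxia, nearly all of it from CPS1, and without CPS1 it was 14.0 to 16.2 CPM in hypoxia and 8.52 to 9.66 CPM in normoxia. Listed markers of other cell types also moved. The 6 myeloid markers summed to 48.1 to 57.0 CPM in hypoxia and 7.20 to 7.27 CPM in normoxia, with PTPRC and AIF1 at 0 counts. Without CD68 they summed to 5.25 to 5.96 CPM in hypoxia and 0.856 to 1.22 CPM in normoxia. The 6 cholangiocyte markers summed to 13.1 to 15.1 CPM in hypoxia and 48.9 to 56.3 CPM in normoxia. Without KRT7 they summed to 0.317 to 0.589 CPM in hypoxia and 0 to 0.325 CPM in normoxia. The 5 endothelial markers, with KDR at 0 counts, summed to 5.33 to 6.11 CPM in hypoxia and 11.3 to 12.3 CPM in normoxia. Without CDH5 the direction turned, with 4.88 to 5.68 CPM in hypoxia and 2.35 to 2.90 CPM in normoxia. The 6 fibroblast markers, with COL1A2 at 0 counts, summed to 58.5 to 67.8 CPM in hypoxia and 72.6 to 75.3 CPM in normoxia. Without COL1A1 the direction also turned, with 6.41 to 7.27 CPM in hypoxia and 2.25 to 2.82 CPM in normoxia. The part of these shifts in the P450 results was not tested, and in bulk RNA fewer cells of a type and less RNA per cell cannot be told apart.

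Few P450 genes were expressed. Of the 55 members, 20 passed the filter on low counts and were tested, 29 had some counts but too few to test, and 6 had 0 counts in all libraries. A mean of at least 1 FPKM in a group was reached by 10 members, at least 5 FPKM by 4 members (CYP11A1, CYP1B1, CYP2R1 and CYP2S1), and at least 10 FPKM by 2 members, CYP11A1 and CYP1B1. No untested member had a group mean above 0.311 CPM.

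The P450 genes that dominate drug oxidation in adult liver were among those scarcely detected in these libraries. Most of the listed hepatocyte markers were low in the same libraries. CYP3A4, which oxidises many prescribed drugs, had 1 count over the 6 libraries together, in hypoxia C5. CYP2A6, the main nicotine oxidase, had 0 counts, which allows up to 3 counts a library, or 0.0867 CPM in hypoxia and 0.0757 CPM in normoxia. Such limits cover counting error only. CYP2C19 had 6.65 expected counts over all libraries, CYP2B6 had 5.99, CYP2C8 had 4 and CYP1A2, the caffeine demethylase, had 12.0. CYP7A1, the rate-limiting enzyme of bile acid synthesis, had 5 counts, and CYP8B1, which makes the cholic acid branch, had 2.98. The members with 0 counts in all 6 libraries were CYP2A6, CYP2A7, CYP2A13, CYP4Z1, CYP7B1 and CYP11B1.

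**Figure D1:**
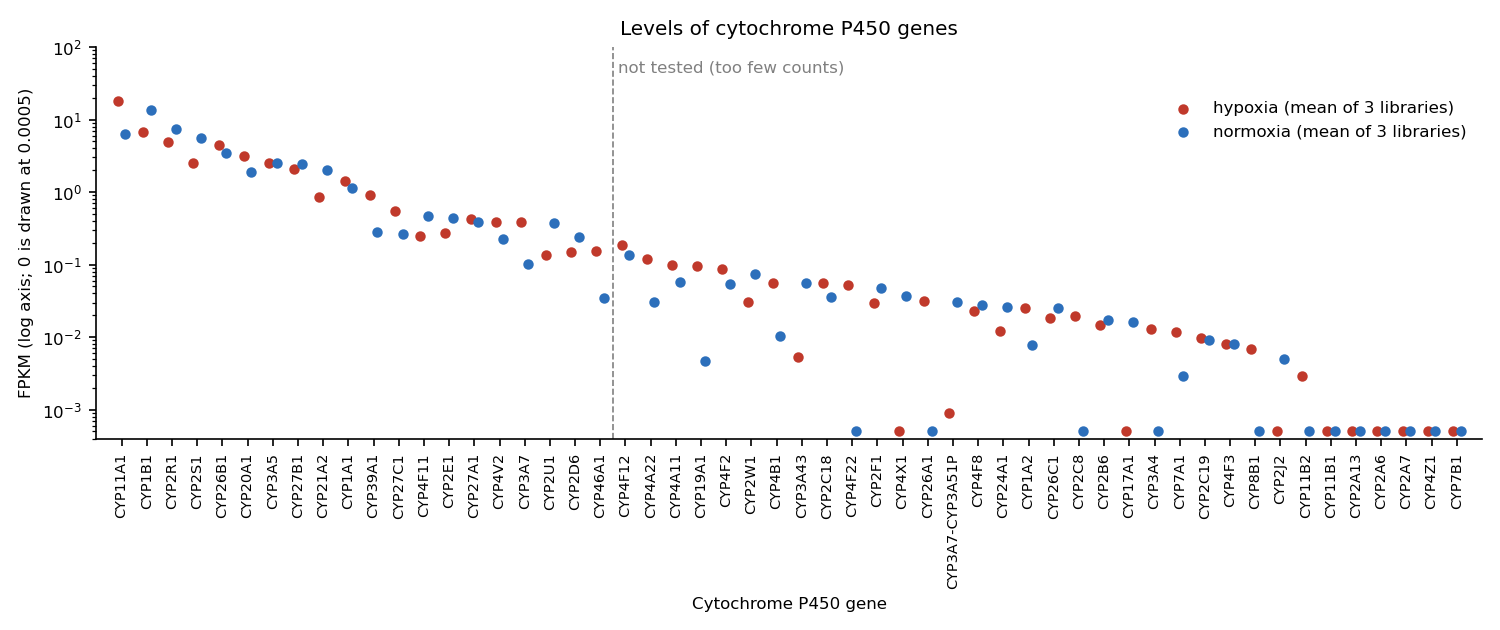
Mean recomputed FPKM over 3 libraries of cytochrome P450 genes on a log axis, with 1 point each for hypoxia and normoxia, tested genes left of the dashed line and untested ones right of it, each ordered by the higher group mean, and values of 0 drawn near the lower edge. CYP11A1 and CYP1B1 reach at least 10 FPKM in a group, and the genes right of the line had too few counts to test.

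Of the tested P450 genes, 9 rose and 5 fell in hypoxia, and the other 6 missed the threshold. Over all tested genes, 36.5% rose and 36.3% fell, and among protein-coding genes 34.7% rose and 43% fell, so the members' 45% risen and 25% fallen stand beside a background in which 72.8% of all genes and 77.7% of protein-coding genes changed. The members' 14 calls, 70% of those tested, were near that background. Changes of at least 2-fold were seen upward in 4 members (CYP46A1, CYP3A7, CYP39A1 and CYP11A1) and downward in CYP2U1. Of all tested genes, 17.5% rose and 11.4% fell that far, and of the protein-coding ones 13.7% rose and 12.2% fell that far. The hypoxia and normoxia libraries did not overlap in CPM for 16 of the 20 members, or 80%, and for 75.7% of all tested genes and 79.9% of the protein-coding ones. The median log2 change was 0.26 over the tested members, 0.02 over all tested genes and -0.08 over tested protein-coding genes. These shares are also the background for the groups of members described below, each with 4 tested members or fewer.

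Summed over the 55 members, P450 transcripts came to 134.9, 136.3 and 134.3 CPM in hypoxia C4 to C6 and 139.9, 145.7 and 146.4 CPM in normoxia C1 to C3. The groups did not overlap. Shares of this sum are shares of reads, which depend on transcript length, so each is read between groups and not between genes. CYP1B1 held 26.5%, 23.0% and 27.6% of the sum in hypoxia and 44.6%, 46.9% and 45.9% in normoxia. CYP11A1 held 21.6%, 23.9% and 21.4% in hypoxia and 6.80%, 7.29% and 6.62% in normoxia. The remaining members together made 68.6 to 72.3 CPM in hypoxia and 66.7 to 69.4 CPM in normoxia, ranges that overlap.

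Per length, the order of the most expressed members also differed between the groups. In hypoxia CYP11A1 stood first at 17.99 ± 0.874 FPKM, above CYP1B1 at 6.67 ± 0.433, CYP2R1 at 4.82 ± 0.415, CYP26B1 at 4.44 ± 0.205 and CYP20A1 at 3.12 ± 0.192 FPKM. In normoxia CYP1B1 stood first at 13.7 ± 0.700 FPKM, followed by CYP2R1 at 7.37 ± 0.523, CYP11A1 at 6.27 ± 0.462, CYP2S1 at 5.63 ± 0.479 and CYP26B1 at 3.40 ± 0.290 FPKM. Of these neighbours, CYP2R1 and CYP26B1 overlapped in FPKM in hypoxia, and CYP11A1 and CYP2S1 overlapped in normoxia. Libraries of the other neighbours named did not overlap.

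**Figure D2:**
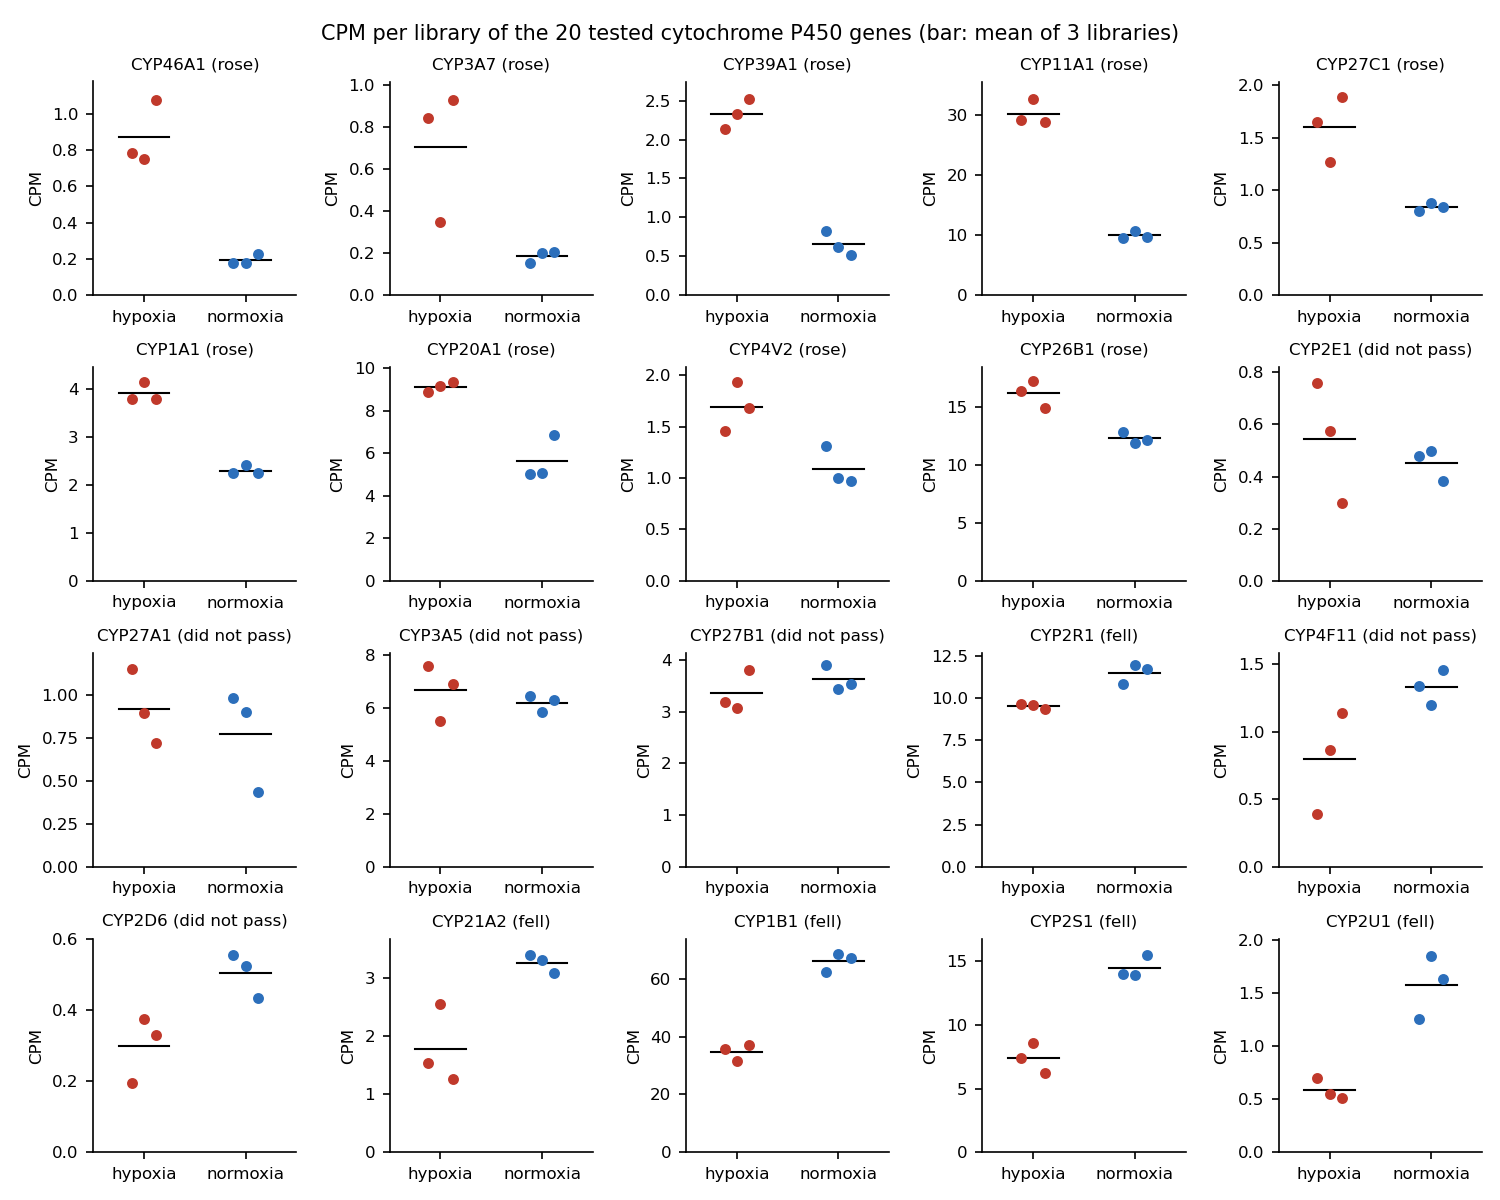
CPM per library of each of the 20 tested cytochrome P450 genes, hypoxia left and normoxia right, with bars at the mean of 3 libraries and each axis starting at 0. The groups separate for 16 genes, with hypoxia higher for 9 of them and lower for 7.

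The windows around the starts of CYP11A1, CYP1A1, CYP39A1 and CYP2S1 are printed to show promoters of 3 members that rose and 1 that fell, with and without the letters searched. Windows run from 250 bases before to 50 bases after the start, from RefSeq on GRCh38.p14, written along the gene's strand. The letters searched, ACGTG and GCGTG, occur in core sites of hypoxia-inducible factors and of the aryl hydrocarbon receptor. Neither is assigned here to 1 factor alone. Capitals mark ACGTG and GCGTG on either strand. The CYP11A1 window (chr15:74367597-74367896, minus strand) and the CYP1A1 window (chr15:74725479-74725778, minus strand) hold both. The CYP39A1 window (chr6:46652769-46653068, minus strand) and the CYP2S1 window (chr19:41192969-41193268, plus strand) hold neither.
CYP11A1: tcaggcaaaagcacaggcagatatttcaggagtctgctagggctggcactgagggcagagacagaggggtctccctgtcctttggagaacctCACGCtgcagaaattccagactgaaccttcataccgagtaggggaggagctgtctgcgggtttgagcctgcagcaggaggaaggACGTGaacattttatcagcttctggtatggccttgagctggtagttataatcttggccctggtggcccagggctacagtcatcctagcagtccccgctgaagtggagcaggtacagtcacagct
CYP1A1: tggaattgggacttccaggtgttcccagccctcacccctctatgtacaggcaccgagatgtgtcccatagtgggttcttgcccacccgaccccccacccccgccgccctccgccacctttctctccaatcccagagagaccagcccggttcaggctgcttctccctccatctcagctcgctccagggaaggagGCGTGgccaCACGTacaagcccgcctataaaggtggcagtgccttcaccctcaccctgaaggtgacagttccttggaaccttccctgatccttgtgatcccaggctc
CYP39A1: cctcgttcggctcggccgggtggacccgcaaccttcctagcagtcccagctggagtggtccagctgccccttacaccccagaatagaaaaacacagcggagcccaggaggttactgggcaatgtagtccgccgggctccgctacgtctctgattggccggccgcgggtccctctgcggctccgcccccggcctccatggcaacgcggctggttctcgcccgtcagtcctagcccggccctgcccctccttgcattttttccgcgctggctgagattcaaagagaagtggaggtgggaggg
CYP2S1: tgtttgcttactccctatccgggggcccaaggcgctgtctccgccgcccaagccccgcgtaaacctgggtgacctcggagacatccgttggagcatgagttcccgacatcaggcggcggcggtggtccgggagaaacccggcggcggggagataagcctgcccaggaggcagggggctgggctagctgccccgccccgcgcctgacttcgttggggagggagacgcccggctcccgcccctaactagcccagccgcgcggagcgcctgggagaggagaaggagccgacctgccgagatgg
In CYP11A1 ACGTG begins 74 bases before the start on the gene's strand and GCGTG 158 bases before it on the opposite strand. In CYP1A1 ACGTG begins 48 bases before the start on the opposite strand and GCGTG 57 bases before it on the gene's strand. RefSeq windows matched 39 of the 55 members and 16 of the 20 tested, and these 16 had 21 windows. CYP1B1, CYP27B1, CYP2D6 and CYP46A1 had no entry. Of the tested members' windows, 23.8% held ACGTG, 28.6% GCGTG and 33.3% either, against 21.4%, 36.5% and 48.4% of all 35116 windows. The 6 genes with a match included CYP27C1, CYP20A1 and CYP4V2, which rose, and CYP2U1, which fell. The motifs share their last letters, CGTG, but cannot begin at the same base of 1 strand, and a match is a description of the letters only.

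Among the 6 members that make steroid hormones, 2 were tested. CYP11A1, the mitochondrial side-chain cleavage enzyme that converts cholesterol to pregnenolone, was 3.03-fold higher in hypoxia. CYP21A2, the adrenal 21-hydroxylase, was 1.82-fold lower. CYP11A1 (chr15:74337759-74367740, minus strand) stood at 29.1, 32.6 and 28.7 CPM in hypoxia and 9.52, 10.6 and 9.69 CPM in normoxia. Every hypoxia library was above every normoxia library. Its log2 change was 1.60 (SE 0.08), with an adjusted p of 1.9e-08 in edgeR's quasi-likelihood test, and it rose under each alternative run. CYP11A1 overlaps an antisense gene without a symbol and the pseudogene PPIAP46 on the opposite strand, and may share reads with them. The antisense gene averaged 9.05 ± 0.583 CPM in hypoxia and 10.2 ± 0.714 CPM in normoxia. PPIAP46 averaged 3.89 ± 0.529 CPM in hypoxia and 2.63 ± 0.617 CPM in normoxia. Apart from CYP21A2, the listed enzymes that act after CYP11A1 were scarcely detected. CYP17A1, the 17-hydroxylase and lyase, had 2.73 expected counts over all libraries, CYP11B2, the aldosterone synthase, had 1, and CYP11B1, which makes cortisol, had 0. CYP19A1, the aromatase that makes estrogens, had 0, 6 and 4 counts in hypoxia and 1, 0 and 0 in normoxia.

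CYP21A2 (chr6:32038265-32041670, plus strand) had 1.54, 2.56 and 1.26 CPM in hypoxia and 3.40, 3.32 and 3.08 CPM in normoxia. The groups did not overlap, and the hypoxia libraries spread more widely than the normoxia ones. For CYP21A2 the log2 change was -0.87 (SE 0.24), with an adjusted p of 0.00741. This value may not be the gene's own. CYP21A2 overlaps TNXB on the opposite strand, whose level was 86.1 ± 7.53 CPM in hypoxia and 41.4 ± 0.267 CPM in normoxia (log2 change 1.06, SE 0.06, adjusted p 8.28e-08). Its near-identical pseudogene CYP21A1P also fell, to 0.339 ± 0.0836 CPM in hypoxia against 0.708 ± 0.222 CPM in normoxia. With the most abundant transcript alone, the log2 change of CYP21A2 was -0.08, with an adjusted p of 0.888.

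Of the 6 members that make bile acids or oxidise cholesterol side chains, 3 were tested and 2 rose, beside 36.5% of all tested genes. CYP39A1, which 7-hydroxylates 24-hydroxycholesterol, was 3.54-fold higher in hypoxia. CYP46A1, known as the brain enzyme that makes 24-hydroxycholesterol, was 4.44-fold higher at a low level. CYP39A1 (chr6:46549580-46652830, minus strand) had 2.13, 2.33 and 2.52 CPM in hypoxia and 0.831, 0.625 and 0.510 CPM in normoxia. All hypoxia libraries were above 2 CPM and all normoxia libraries below 1 CPM. This gave a log2 change of 1.82 (SE 0.24), with an adjusted p of 4.54e-05, and of 0.85 with limma on log2(FPKM + 0.5). Its counts were divided differently among transcripts in hypoxia C5, where CYP39A1-205 held 64.6 expected counts and CYP39A1-201 held 13.4, and the most abundant transcript alone missed the threshold (log2 change 1.46, adjusted p 0.0765).

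CYP46A1 (chr14:99684304-99727301, plus strand) had 0.785, 0.749 and 1.08 CPM in hypoxia and 0.176, 0.175 and 0.229 CPM in normoxia. The groups were well apart at these low counts. They gave a log2 change of 2.15 (SE 0.35), with an adjusted p of 2.39e-04. Nearly all of these counts lay in transcripts that do not encode the enzyme. The transcript CYP46A1-204, annotated for nonsense-mediated decay, held 84.2 ± 1.95% of them in hypoxia and 91.5 ± 7.51% in normoxia. Protein-coding transcripts of CYP46A1 held 0 counts in every hypoxia library and 1 count, in C2, in normoxia. CYP27A1, the mitochondrial sterol 27-hydroxylase, had 1.15, 0.893 and 0.719 CPM in hypoxia and 0.982, 0.90 and 0.433 CPM in normoxia. The groups overlapped and it did not pass (log2 change 0.26, SE 0.35, adjusted p 0.53).

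Of the 3 vitamin D enzymes, 2 were tested and 1 fell, beside 36.3% of all tested genes. CYP2R1, the main vitamin D 25-hydroxylase, was 1.21-fold lower in hypoxia. CYP27B1, the 1-alpha-hydroxylase that makes the active hormone, did not pass. CYP24A1, which inactivates the hormone, had 4 counts over all libraries. CYP2R1 (chr11:14877440-14892252, minus strand) had 9.68, 9.59 and 9.34 CPM in hypoxia and 10.9, 11.9 and 11.8 CPM in normoxia. Libraries within a group were close together and the groups did not overlap. The change of -0.27 on the log2 scale (SE 0.08) had an adjusted p of 0.0126. It was -0.42 with library totals in edgeR. On log2(FPKM + 0.5) with limma, where FPKM is also scaled by library totals, it was -0.56, with 4.82 ± 0.415 FPKM in hypoxia and 7.37 ± 0.523 FPKM in normoxia. For the most abundant transcript alone it was 0.20, with an adjusted p of 0.325. Protein-coding transcripts held 51.6 ± 3.6% of the CYP2R1 counts in hypoxia and 39.6 ± 6.5% in normoxia.

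CYP27B1 had 3.20, 3.08 and 3.80 CPM in hypoxia and 3.90, 3.45 and 3.54 CPM in normoxia. The groups overlapped, and the log2 change was -0.11 (SE 0.14, adjusted p 0.499). It overlaps METTL1 on the same strand, so its reads may be divided with that gene.

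Both tested members that act on retinoids rose, beside 36.5% of all tested genes. CYP26B1, which degrades retinoic acid, was 1.32-fold higher, and CYP27C1, a retinoid desaturase of skin, was 1.90-fold higher. CYP26B1 (chr2:72129238-72148038, minus strand) had 16.4, 17.3 and 14.9 CPM in hypoxia and 12.8, 11.9 and 12.2 CPM in normoxia. The lowest hypoxia library was above the highest normoxia library. A log2 change of 0.40 (SE 0.08) had an adjusted p of 0.0012, and it was 0.25 when libraries were scaled by their totals and 0.63 for the most abundant transcript alone. CYP27C1 (chr2:127184120-127220078, minus strand) had 1.66, 1.27 and 1.89 CPM in hypoxia and 0.806, 0.875 and 0.841 CPM in normoxia. The normoxia libraries were tightly grouped below all hypoxia libraries. Its log2 change was 0.93 (SE 0.24), with an adjusted p of 0.005, and 0.44 to 1.62 over the alternatives run, each past the threshold. The other retinoic acid hydroxylases, CYP26A1 and CYP26C1, had 3.98 and 21.9 expected counts over all libraries and were not tested.

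Family 1, whose genes respond to the aryl hydrocarbon receptor and which oxidises aromatic hydrocarbons, was split. CYP1B1, which also hydroxylates estrogens, was 1.90-fold lower in hypoxia and CYP1A1 was 1.70-fold higher, while CYP1A2 was not tested. CYP1B1 (chr2:38066973-38109902, minus strand) had 35.8, 31.4 and 37.0 CPM in hypoxia and 62.4, 68.4 and 67.3 CPM in normoxia. No hypoxia library came near the lowest normoxia library. CYP1B1 had a log2 change of -0.93 (SE 0.07), with an adjusted p of 3.94e-07, and fell under each alternative run. The gene overlapping CYP1B1 on the opposite strand, CYP1B1-AS1, moved the other way, at 40.3 ± 2.90 CPM in hypoxia and 29.7 ± 3.50 CPM in normoxia (log2 change 0.44, SE 0.09, adjusted p 8.85e-04).

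CYP1A1 (chr15:74719542-74725610, minus strand) had 3.79, 4.15 and 3.80 CPM in hypoxia and 2.24, 2.42 and 2.24 CPM in normoxia. The groups were clearly apart, and the log2 change was 0.76 (SE 0.14), with an adjusted p of 5.62e-04. Its transcripts were not used alike in the deposited table. CYP1A1-202 held 54.4 ± 35.7% of the gene's counts in hypoxia and 0 in normoxia, and CYP1A1-201 held 39.4 ± 35.7% in hypoxia and 81.1 ± 9.75% in normoxia. In FPKM the gene stood at 1.43 ± 0.174 in hypoxia and 1.12 ± 0.116 in normoxia, and limma on log2(FPKM + 0.5) gave 0.25 with an adjusted p of 0.09. The most abundant transcript alone gave a log2 change of -0.23.

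**Figure D3:**
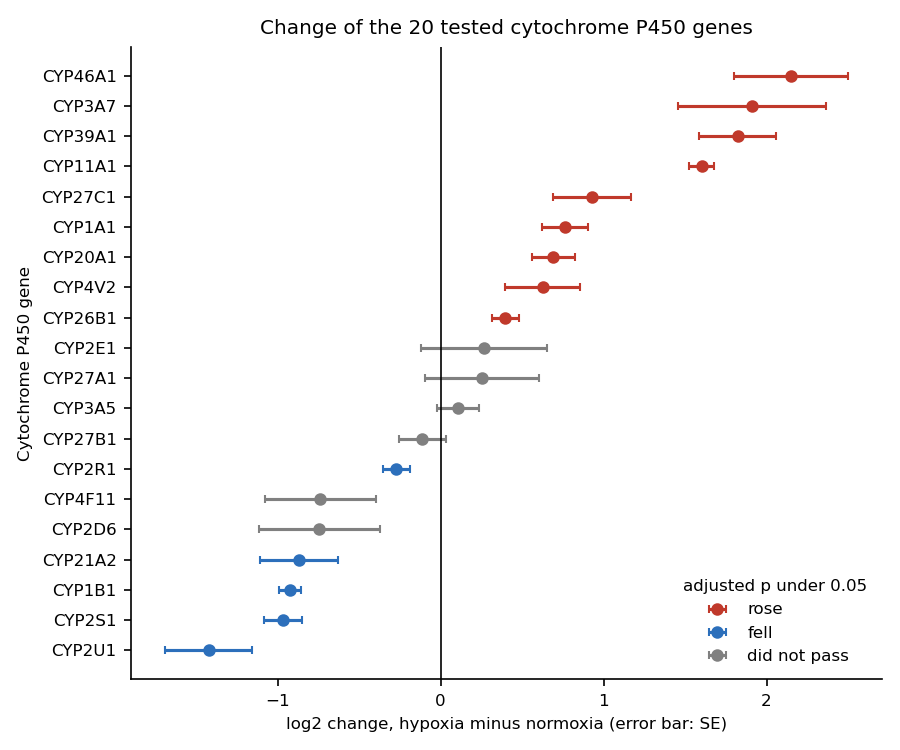
Log2 change, hypoxia minus normoxia, of the 20 tested cytochrome P450 genes with its standard error, coloured by the edgeR call. Changes run between 2.15 for CYP46A1 and -1.42 for CYP2U1, and the low-count genes CYP3A7, CYP2E1 and CYP2D6 have the wide error bars.

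None of the 4 tested members among the other 15 genes of family 2 rose, and 2 fell. Over all tested genes, 36.5% rose and 36.3% fell. CYP2S1, an extrahepatic enzyme of epithelia, was 1.96-fold lower in hypoxia, and CYP2U1, a fatty acid hydroxylase, was 2.68-fold lower. CYP2S1 (chr19:41193049-41207539, plus strand) had 7.38, 8.56 and 6.20 CPM in hypoxia and 14.0, 13.9 and 15.5 CPM in normoxia. The groups were far apart relative to the spread in either. CYP2S1 had a log2 change of -0.97 (SE 0.12), with an adjusted p of 2.35e-05. CYP2U1 (chr4:107931369-107953457, plus strand) had 0.701, 0.547 and 0.509 CPM in hypoxia and 1.26, 1.85 and 1.63 CPM in normoxia. It was below 1 CPM in every hypoxia library and above it in every normoxia library. CYP2U1 had a log2 change of -1.42 (SE 0.27), with an adjusted p of 6.43e-04. CYP2S1 and CYP2U1 fell under each alternative that tested them.

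CYP2D6 and CYP2E1, both prominent in adult liver, were near the lower limit of the test. CYP2D6 had 0.196, 0.375 and 0.329 CPM in hypoxia and 0.554, 0.525 and 0.433 CPM in normoxia. These groups did not overlap, but the log2 change of -0.75 (SE 0.37) had an adjusted p of 0.0941. CYP2D6 passed with library totals in edgeR (log2 change -0.90, adjusted p 0.0485) and under no other alternative. Its pseudogene CYP2D7 may share reads with it. CYP2E1, which oxidises ethanol, had 0.757, 0.576 and 0.299 CPM in hypoxia and 0.478, 0.50 and 0.382 CPM in normoxia. Its groups overlapped (log2 change 0.27, SE 0.39, adjusted p 0.549). CYP2J2, an arachidonic acid epoxygenase, had 1 count, in normoxia C3.

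In family 3, CYP3A7, the main enzyme of this family in fetal liver, was 3.76-fold higher in hypoxia at a low level, and CYP3A5 did not pass. CYP3A7 (chr7:99684957-99735196, minus strand) had 0.842, 0.346 and 0.928 CPM in hypoxia and 0.151, 0.200 and 0.204 CPM in normoxia. Hypoxia C5 was closer to the normoxia libraries than to C4 and C6. With a log2 change of 1.91 (SE 0.45) it had an adjusted p of 0.00314, and no library left out in turn ended the call. The read-through gene CYP3A7-CYP3A51P overlaps it and may share its reads. It had 0, 0.17 and 0 expected counts in hypoxia and 3.60, 0 and 2.29 in normoxia, beside 30.0, 11.8 and 31.0 in hypoxia and 6.40, 8.0 and 7.71 in normoxia for CYP3A7. CYP3A5 had 7.60, 5.53 and 6.92 CPM in hypoxia and 6.45, 5.85 and 6.32 CPM in normoxia. The groups overlapped and the log2 change was 0.11 (SE 0.13, adjusted p 0.473). A single transcript with a retained intron, CYP3A5-211, held 91.0 ± 2.51% of the CYP3A5 counts in hypoxia and 92.7 ± 2.53% in normoxia. Transcripts that encode the enzyme held 10.0, 8.62 and 14.3 expected counts in hypoxia and 6.32, 7.61 and 16.9 in normoxia.

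Of the 12 members of family 4, which mostly hydroxylate fatty acids, 2 were tested. CYP4V2, a fatty acid hydroxylase of retina, was 1.54-fold higher in hypoxia, with 1.46, 1.93 and 1.68 CPM in hypoxia and 1.31, 1.00 and 0.969 CPM in normoxia. No hypoxia library was below a normoxia library, and the log2 change of 0.63 (SE 0.23) had an adjusted p of 0.0294. This call was lost with DESeq2 (adjusted p 0.0722), without the filter (0.0568), with library totals (0.0823), and without hypoxia C5 (log2 change 0.52), hypoxia C6 (0.63), normoxia C2 (0.56) or normoxia C3 (0.54). Most of the hypoxia counts lay in a noncoding transcript. CYP4V2-202, a processed transcript, held 86.6 ± 8.55% of the gene's counts in hypoxia and 33.6 ± 6.93% in normoxia, and the most abundant transcript alone gave a log2 change of 2.05. The protein-coding CYP4V2-201 had 7.92, 0 and 0 expected counts in hypoxia and 24.3, 11.6 and 13.1 in normoxia. CYP4F11, which hydroxylates vitamin K and fatty acids, had 0.393, 0.864 and 1.14 CPM in hypoxia and 1.33, 1.20 and 1.45 CPM in normoxia. The groups did not overlap, but the log2 change of -0.74 (SE 0.34) had an adjusted p of 0.074. It passed with library totals (log2 change -0.89, adjusted p 0.0343), without the filter (-0.77, adjusted p 0.0384) and without hypoxia C6 (-1.08, adjusted p 0.0224). Without hypoxia C4 the log2 change was -0.41, with an adjusted p of 0.206. Among the untested members, CYP4F22, an enzyme of skin ceramide synthesis, had 2, 6 and 7 counts in hypoxia and 0 in each normoxia library, and CYP4X1 had 10 counts in normoxia C1 and 0 in the other 5 libraries.

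CYP20A1, a member with no assigned substrate, was 1.62-fold higher in hypoxia. It had 8.86, 9.16 and 9.34 CPM in hypoxia and 5.04, 5.05 and 6.86 CPM in normoxia. The hypoxia libraries were close together, and normoxia C3 was nearest to them. Its log2 change was 0.69 (SE 0.13), with an adjusted p of 6.81e-04.

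Which transcripts held the counts varied strongly between members. As group means, protein-coding transcripts held at least 90% of the counts in both groups for 9 of the 20 tested members and under 50% in both groups for 6, CYP3A5, CYP46A1, CYP4V2, CYP27A1, CYP27B1 and CYP2D6. Single libraries were above 50% for CYP2D6, at 100% in hypoxia C4 and 52.4% in normoxia C3, and for CYP27A1, at 52.3% in hypoxia C4 and 51.7% in normoxia C2. The division of reads among transcripts is an estimate and was not tested between groups.

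**Figure D4:**
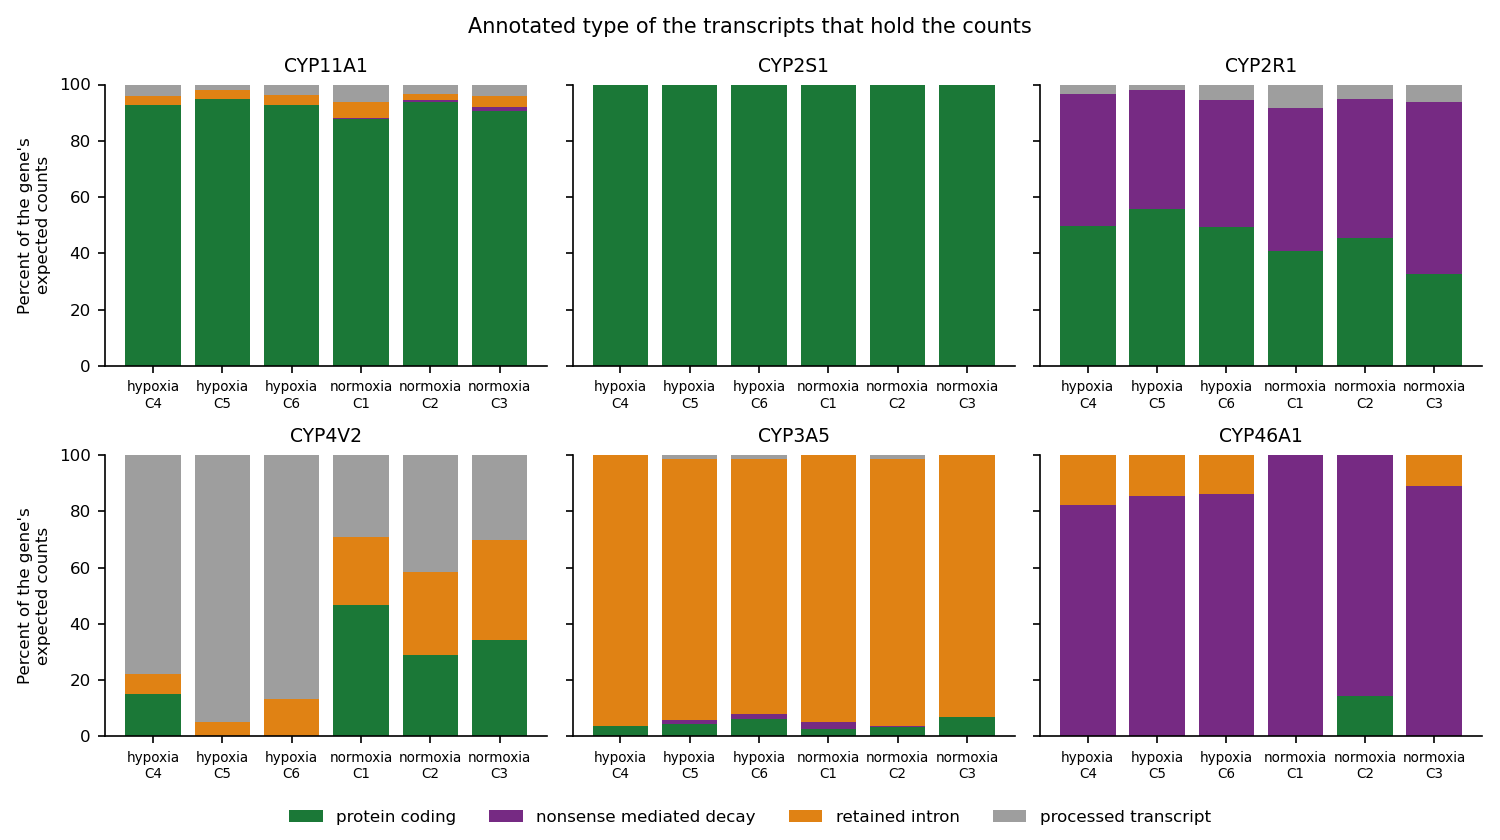
Percent of a gene's expected counts held by protein-coding, nonsense-mediated decay, retained-intron and other transcripts, for CYP11A1, CYP2S1, CYP2R1, CYP4V2, CYP3A5 and CYP46A1 in each hypoxia and normoxia library. CYP46A1 counts lie mostly in the decay class and CYP3A5 counts in the retained-intron class in both groups, and CYP4V2 has a larger noncoding share in hypoxia.

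The mRNAs of proteins that hand electrons to P450 enzymes, and of related proteins listed with them, included some that rose and some that fell. Among the 11 tested of 12 listed redox partners, 4 rose, 4 fell and 3 missed the threshold, near the background of 36.5% risen and 36.3% fallen over all tested genes, and their median log2 change was 0.06. The background for the lists that follow is the same, with 72.8% of all tested genes changed and a median log2 change of 0.02. POR, the reductase that serves the endoplasmic reticulum members, had 71.5, 75.1 and 68.0 CPM in hypoxia and 142.6, 144.8 and 148.6 CPM in normoxia. It was 2.03-fold lower in hypoxia, with every hypoxia library far below every normoxia library (log2 change -1.02, SE 0.05, adjusted p 1.11e-08). On the mitochondrial chain that serves CYP11A1 and CYP27A1, the ferredoxin FDX1 and the ferredoxin reductase FDXR moved in opposite directions. FDX1 averaged 11.8 ± 1.10 CPM in hypoxia and 22.9 ± 1.92 CPM in normoxia (log2 change -0.96, SE 0.09, adjusted p 3.98e-06). FDXR averaged 21.5 ± 2.05 CPM in hypoxia and 13.4 ± 0.299 CPM in normoxia (log2 change 0.68, SE 0.08, adjusted p 2.5e-05). FDX2, a ferredoxin of iron-sulfur cluster assembly, was at 8.01 ± 0.089 CPM in hypoxia and 13.0 ± 0.469 CPM in normoxia, and it overlaps other genes on its strand. PGRMC2, a heme-binding membrane protein, rose (104 ± 7.35 CPM in hypoxia and 57.6 ± 3.93 CPM in normoxia), as did CYB5R4 by a log2 change of 0.28. CYB5A, the cytochrome b5 of the endoplasmic reticulum, rose by a log2 change of 0.31, although its most abundant transcript alone gave -0.0078. CYB5R1 fell, with a log2 change of -0.63. CYB5B, CYB5R3 and PGRMC1 did not pass, and CYB5R2 was not tested.

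Genes that respond to the aryl hydrocarbon receptor included 2 that rose and 5 that fell. These were all 7 on the list, which leaves out the CYP genes, and their median log2 change was -0.53, beside 36.5% risen and 36.3% fallen over all tested genes. The receptor repressor AHRR averaged 33.5 ± 7.75 CPM in hypoxia and 6.72 ± 1.60 CPM in normoxia (4.99-fold higher, log2 change 2.32, SE 0.18, adjusted p 8.67e-07), and it overlaps PDCD6 on the same strand. TIPARP, a mono-ADP-ribosyltransferase that restrains the receptor, rose 4.01-fold, to 236 ± 17.8 CPM in hypoxia against 58.9 ± 2.07 CPM in normoxia. The quinone reductase NQO1 fell 2.16-fold, to 57.6 ± 2.99 CPM in hypoxia against 125 ± 4.09 CPM in normoxia. ALDH3A1, LPCAT2, UGT1A6 and NFE2L2 also fell, with log2 changes of -1.0, -0.83, -0.53 and -0.25, where UGT1A6 shares exons with other UGT1A genes. The receptor AHR itself, singled out after its value was seen, had 89.7, 87.4 and 92.5 CPM in hypoxia and 82.1, 92.3 and 95.8 CPM in normoxia. Its groups overlapped (log2 change -0.00, SE 0.06, adjusted p 0.97).

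Beside the CYP26 enzymes, 14 genes that handle retinoids were listed and 7 tested. Of these 4 rose, 2 fell and 1 missed the threshold, and the median log2 change was 0.99, where 72.8% of all tested genes changed. CRABP2, which carries retinoic acid to its receptors, averaged 88.2 ± 4.59 CPM in hypoxia and 4.78 ± 0.346 CPM in normoxia. This was an 18.4-fold difference (log2 change 4.21, SE 0.07, adjusted p 1.09e-11). The retinal reductase DHRS3 averaged 95.2 ± 4.19 CPM in hypoxia and 18.7 ± 1.11 CPM in normoxia (5.08-fold higher). The retinol transporter STRA6 rose 3.26-fold and the retinal reductase RDH11 rose 1.98-fold. ALDH1A3, which makes retinoic acid, fell by 0.54 on the log2 scale. ALDH1A2, which also makes it, had an adjusted p of 0.0499 (log2 change -0.88), a call lost under several alternatives. RDH10 did not pass.

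Of 32 listed receptors and regulators of P450 genes, 19 were tested. Here 11 rose, 6 fell and 2 missed the threshold, and the median log2 change was 0.29, where 36.5% of all tested genes rose and 36.3% fell. NR1I2, the drug-sensing pregnane X receptor, had 1 count over the 6 libraries, and NR1I3, the constitutive androstane receptor, was not tested. The retinoic acid receptor RARA averaged 98.3 ± 6.90 CPM in hypoxia and 26.8 ± 0.541 CPM in normoxia (log2 change 1.88, SE 0.06), and its relative RARG fell by 0.90 on the log2 scale. CEBPB, a transcription factor of liver and of inflammation, averaged 277 ± 15.6 CPM in hypoxia and 84.8 ± 1.47 CPM in normoxia (log2 change 1.71). The oxysterol receptor NR1H2 rose by a log2 change of 1.32 and HNF4A, a hepatocyte transcription factor, by 2.43. The transcription factors FOXA1 and CEBPA of the same list fell, by 0.48 and 0.52 on the log2 scale. Of the 32 listed genes, 14 were under 1 CPM in both groups, and 3 of these had 0 counts in all libraries. The vitamin D receptor VDR, singled out after its value was seen, fell by 0.62 on the log2 scale.

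**Figure D5:**
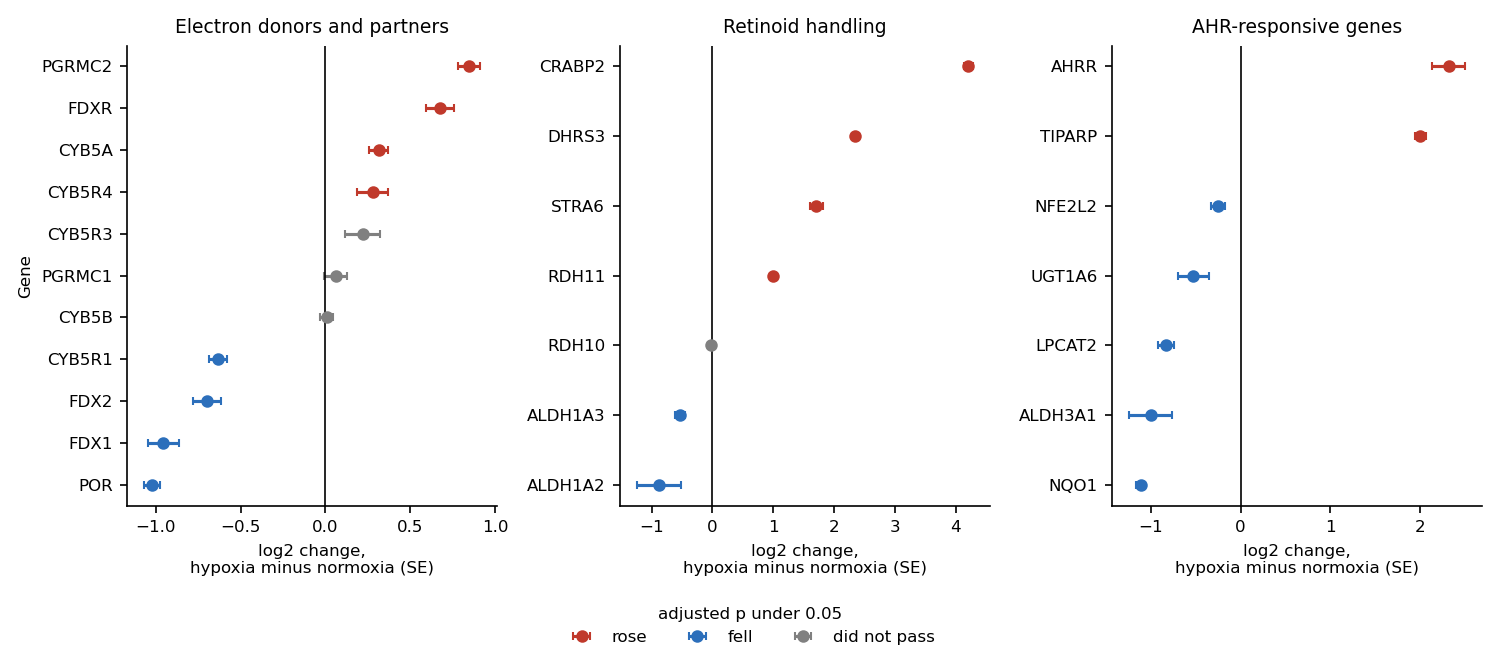
Log2 change, hypoxia minus normoxia, with its standard error for genes of the redox partner, retinoid and aryl hydrocarbon receptor lists, coloured by the edgeR call. POR and FDX1 lie left of 0 and FDXR right of it, AHRR and TIPARP stand apart from the other receptor-responsive genes, and CRABP2 has the largest change of the 3 panels.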

How the data were processed

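RNA was measured in 6 libraries, 3 hypoxia and 3 normoxia. The authors deposited 1 table of Ensembl transcripts with lengths and, per library, expected counts, which RSEM divides among transcripts. Its 6 FPKM columns were not used here. The submitters' processing notes name cutadapt, HISAT2, RSEM and GRCh38 (hg38). Tool versions, annotation and any use of the strand in counting were not given in the sources used, so reads of overlapping or near-identical genes may have been divided between them.

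Expected counts were summed per gene with GENCODE release 29, leaving out 48155 rows with no gene there (6.12% to 6.39% of counts), and rounded. Genes were kept by filterByExpr, scaled by TMM factors and tested two-sided with edgeR 4.0.16 (limma 3.58.1, R 4.3.3), with Benjamini-Hochberg adjustment over 17396 genes and a threshold of 0.05. The SE is the size of the log2 change divided by the square root of F. FPKM was recomputed from expected counts, transcript lengths (not effective lengths) and library totals, and summed over a gene's transcripts.

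The members and lists were chosen with earlier results of these data known. Each tested member is named, with all tested redox partners and up to 6 called members of each other list with the largest changes at 1 CPM or more. Further list members, such as AHR, VDR, FOXA1, CEBPA, NFE2L2, RDH10, SULT1A2 and TBXAS1, were named after their values were seen. The levels of 1 untested member and 1 listed gene are not reported here. Alternatives were DESeq2 1.42.0, other scalings and filters, the most abundant transcript alone, and leaving out each library. Limma on log2(FPKM + 0.5) and log2(FPKM + 0.1) of the recomputed FPKM, for genes at 0.5 FPKM or more, was added after seeing the data. Each pair of replicate libraries differed beyond counting noise, so none was treated as a duplicate.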

Additional observations from a re-analysis of the deposited data

How the results depend on the processing

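Of the 14 members that changed, 9 (CYP11A1, CYP1B1, CYP20A1, CYP26B1, CYP27C1, CYP2S1, CYP2U1, CYP3A7 and CYP46A1) kept their call under every alternative that tested them. The count of risen members, 9 as reported, was 5 with limma on log2(FPKM + 0.5) and 5 on log2(FPKM + 0.1), chosen after seeing the data, where 12 members were tested. With a library left out it was 8 to 10. The count of fallen members, 5 as reported, was 3 with the most abundant transcript alone and 5 to 6 with a library left out. Without the filter, 49 members were tested, of which 10 rose and 6 fell. These included CYP4A22, CYP4F11 and CYP4F22, which are not among the 14 reported calls. CYP4A22 was also called without hypoxia C4 and without normoxia C1. Scaling by library totals moved the median log2 change of all genes to -0.13 and the risen share of called genes to 41.2%, where the TMM scaling gave 0.02 and 50.1%, and it called 8 members risen and 7 fallen. Directions turned with the most abundant transcript alone for CYP1A1 (-0.23), CYP27A1 (-0.065), CYP2R1 (0.20), CYB5A (-0.0078) and SULT1A2 (-0.021), with limma on FPKM for CYP3A5 (-0.019 and -0.024) and with library totals for CYP3A5 (-0.043). With a library left out, CYP27A1 ran between -0.037 (without normoxia C3) and 0.45, and CYP2E1 between -0.048 (without hypoxia C4) and 0.56. The cause was not tested. Fits on the deposited FPKM columns were not run. Members under about 1 CPM rest on few counts. This limits CYP46A1, CYP3A7, CYP27A1, CYP2D6 and CYP2E1 in both groups, CYP2U1 and CYP4F11 in hypoxia, and CYP39A1 and CYP27C1 in normoxia. No paired analysis was possible because the numbers in the column names match no replicate number in the labels.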

Other observations

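Other drug-metabolising enzymes, outside the P450 family, were also followed. The list held 37, of which 36 had values and 17 passed the filter. Of those, 6 rose, 6 fell and 5 missed the threshold, and the median log2 change was -0.19, where 72.8% of all tested genes changed, with a median of 0.02. AOX1, a molybdenum-dependent aldehyde oxidase, averaged 4.30 ± 0.615 CPM in hypoxia and 2.12 ± 0.503 CPM in normoxia (log2 change 1.02, SE 0.20, adjusted p 8.14e-04). The carboxylesterase CES2, which activates ester prodrugs, averaged 114 ± 4.01 CPM in hypoxia and 60.9 ± 2.11 CPM in normoxia (log2 change 0.91). SULT1A1, a sulfotransferase of phenols, rose by a log2 change of 0.54, and its close relative SULT1A2, which may share reads with it, by 0.41. TPMT, which methylates thiopurine drugs, moved the other way and averaged 12.8 ± 0.890 CPM in hypoxia and 22.9 ± 2.08 CPM in normoxia (log2 change -0.83). UGT1A1, the bilirubin glucuronosyltransferase, fell by 0.84 on the log2 scale at about 1 CPM, with exons shared with other UGT1A genes.

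Outside the naming rule, 3 other P450-fold genes were tested. CYP51A1, the lanosterol demethylase of cholesterol synthesis, averaged 181 ± 14.4 CPM in hypoxia and 96.9 ± 4.26 CPM in normoxia, 1.87-fold higher (log2 change 0.90, SE 0.06, adjusted p 2.03e-07). The prostacyclin synthase gene PTGIS rose 2.45-fold at a low level, to 0.375 ± 0.0522 CPM in hypoxia against 0.151 ± 0.0652 CPM in normoxia. The thromboxane synthase gene TBXAS1 did not pass (log2 change 0.34, adjusted p 0.448).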
